A study of Mus musculus with 12 samples.

Results

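The β2 integrins are the leukocyte adhesion receptors built from the CD18 chain, encoded by *Itgb2*, and 1 of the CD11 chains encoded by *Itgal*, *Itgam*, *Itgax* and *Itgad*. These 5 genes were taken by symbol from the 25860 genes of the RNA-seq table, and all 5 were among the 14459 genes abundant enough to be tested. Peaks of accessible chromatin were taken by the same gene names from the 23932 peaks of the ATAC-seq list. The study compared CD8+ T_prog_ cells, the stem-like progenitors of autoreactive killer T cells, between genotypes called WT and UTX TCD, after sorting from the lymph node that drains the pancreas. Both genotypes are nonobese diabetic (NOD) mice with the NY8.3 transgene, a T cell receptor that lets CD8+ T cells recognize a pancreatic β cell antigen. UTX TCD mice are *UTX fl/fl* *Lck-Cre+*, so that *Kdm6a*, the X-linked gene for the chromatin regulator UTX, is deleted in cells of the T lineage from the thymus onward, and the WT mice are littermates with the same floxed alleles and no Cre. The labels give the sort as Ly108+ without CXCR6, and the study's methods as Ly108+CD39-; the age of the mice is not given in the labels. Each genotype had 3 RNA-seq and 3 ATAC-seq libraries. The labels do not tie a library to a mouse, so p-values measure the spread between these libraries.

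An integrin α chain reaches the cell surface only when paired with its β chain, and CD18 serves every CD11 chain. CD11a with CD18 forms LFA-1, the integrin that T cells use to bind ICAM-1 on other cells, to enter lymph nodes and to hold a target during killing. CD11b (Mac-1, also complement receptor 3), CD11c and CD11d are best known from myeloid, dendritic and NK cells, where they bind complement fragments, fibrinogen and adhesion molecules, and they also appear on some antigen-experienced CD8+ T cells. In mice the 4 CD11 genes lie on chromosome 7, with *Itgam*, *Itgax* and *Itgad* side by side, and *Itgb2* lies on chromosome 10 (chr10:77530329-77565708 of mm10).

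The 3 WT libraries held 146456724, 144503203 and 193568919 reads, as quotients of the deposited values, and the 3 UTX TCD libraries held 61512402, 175462433 and 187275082. The first UTX TCD library was the shallowest, so that 3 reads, the limit used for a count of 0, correspond to a normalized count of 6.75 there and to 2.21 to 2.97 in the other libraries. *Kdm6a* itself had normalized counts of 28365, 28949 and 29172 in WT and 24158, 24792 and 24579 in UTX TCD. The groups did not overlap, and the difference was small (log2 fold change −0.23, SE 0.04, limma adjusted p = 0.00114). A count over the whole gene includes exons outside the floxed part, so this value does not measure the deletion. The lineage genes *Cd8a*, *Cd3e* and *Trac* were abundant in every library, with the lowest value for *Trac*, 100214, in the third UTX TCD library, and *Cd4*, the coreceptor of helper T cells, averaged 92.3 ± 10.4 in WT and 55.9 ± 13.6 in UTX TCD (SD, n = 3). Of the sort markers, *Slamf6*, which encodes Ly108, averaged 28378 ± 5425 and 34357 ± 2989 and was not called. *Cxcr6* averaged 12033 ± 2146 in WT and 5658 ± 355 in UTX TCD and was called lower (log2 fold change −1.07, SE 0.12, adjusted p = 0.000131), although the labels give a gate without this receptor. *Entpd1*, which encodes CD39, was low in both groups at 17.3 ± 10.7 and 7.24 ± 4.82. *Tcf7*, which encodes the progenitor factor TCF1, averaged 235632 ± 8264 and 224012 ± 4856, and *Cd44* averaged 11830.5 ± 377 and 13342 ± 855, neither called.

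The libraries also differed in a way that crossed the genotypes. Among genes with 1 to 20 reads, odd numbers made up 57.0%, 57.0% and 58.1% in WT 1, WT 2 and UTX TCD 1, against 43.3%, 44.5% and 44.3% in WT 3, UTX TCD 2 and UTX TCD 3. From 21 to 1000 reads the share was between 49.6% and 50.7% in all 6 libraries. The sources used here do not say whether reads were counted alike in all libraries. A read may thus not be the same unit in each. Values within each of these sets of 3 libraries are therefore given for the members below. Each set has 2 libraries of 1 genotype and 1 of the other, so these values carry no spread for the single library.

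All 5 β2 integrin genes were lower in every UTX TCD library than in any WT library, but the size of the difference divided the family. A gene was called when its adjusted p was under 0.05 and its absolute log2 fold change over 0.5. *Itgam*, *Itgax* and *Itgad* were called lower, whereas *Itgal* and *Itgb2* were not called. These are 3 of 5 genes, beside 17.6% of all genes tested that were called in either direction and 7.05% that were called lower. A lack of overlap with UTX TCD below WT was itself common, at 26.1% of all genes tested, so that pattern alone says little about the family. In bulk libraries such as these, fewer cells that express a gene and less RNA per cell cannot be told apart.

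*Itgb2*, the shared β chain, had normalized counts of 116229, 108916 and 117902 in WT and 97835, 99640.3 and 90435 in UTX TCD. Every UTX TCD library lay below the lowest WT library, with a gap wider than the SD of either group (114349 ± 4779 and 95970.2 ± 4878, SD, n = 3). The log2 fold change was −0.25 (SE 0.05, limma adjusted p = 0.00546), inside the fold limit, with a 95% interval from −0.38 to −0.13. *Itgal*, the α chain of LFA-1, had 123690.1, 121946 and 126589.8 in WT and 112096, 113187 and 110228 in UTX TCD. The groups were again separate and close together, with a mean 9.86% lower in UTX TCD (log2 fold change −0.15, SE 0.04, adjusted p = 0.0201). After scaling all libraries to 1 common total the log2 fold change of *Itgal* was −0.09 (adjusted p = 0.0800), and adjusted p was over 0.05 in 5 of 17 alternatives. The others of these left out WT 1, WT 3, UTX TCD 1 or UTX TCD 2, with log2 fold changes of −0.15, −0.14, −0.15 and −0.16. Whether adjusted p was under 0.05 thus depends on the analysis, while the size of this small difference moved with the scaling. Both genes are among the most abundant of these cells, as *Itgal* ranked 122 and *Itgb2* 144 by mean normalized count among the 14459 genes tested. Within the sets of libraries defined by odd and even counts the differences were −0.13 and −0.18 for *Itgal* and −0.20 and −0.31 for *Itgb2* on the log2 scale.

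*Itgam*, which encodes CD11b, had normalized counts of 453, 434 and 459.9 in WT. In UTX TCD it had 72.0, 91.3 and 64.1, from 32, 114 and 87 reads. The WT libraries lay close together and far above all UTX TCD libraries, so that the mean was 5.92 times as high in WT (449 ± 13.1 against 75.8 ± 13.97, SD, n = 3). *Itgam* fell by 2.57 on the log2 scale (SE 0.17, limma adjusted p = 8.10e-06), in 3 of 3 libraries. The 95% interval of the log2 fold change ran from −2.95 to −2.19, and it ranked 119 from the lowest among all genes tested. Within the sets of libraries, each with a single library of 1 genotype, the difference was −2.61 and −2.57, close to that over all libraries.

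*Itgax*, which encodes CD11c and is widely used to mark dendritic cells, was scarce even in WT. Its normalized counts were 48.5, 24.7 and 55.7 in WT, from 49, 25 and 73 reads. In UTX TCD it was at 0 in 2 libraries, which allows up to 6.75 in the first and 2.40 in the second, and at 4.42 in the third, from 6 reads. All of these values and limits lie below the lowest WT library. The log2 fold change was −4.57 (SE 0.71, limma adjusted p = 0.00103), but with 0 reads in 2 libraries its size depends on the pseudocount of 1 added to each value: it was −5.26 with 0.5 and −2.89 with 5, called each time. Its 95% interval was wide, from −6.18 to −2.95, and it ranked 16 from the lowest among all genes tested. Leaving out the third UTX TCD library, the only one of that group with a read, moved it to −5.38, and leaving out the first or the second moved it to −4.16.

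*Itgad*, which encodes CD11d, was scarce too, with a count above that of *Itgax* in every WT library. It had 52.5, 44.4 and 71.7 in WT, from 53, 45 and 94 reads, and 2.25, 0 and 3.69 in UTX TCD, from 1, 0 and 5 reads. The highest UTX TCD library was far below the lowest WT library. The log2 fold change was −4.50 (SE 0.59, limma adjusted p = 0.000379), −4.96 with a pseudocount of 0.5 and −3.15 with 5, called each time. Its 95% interval ran from −5.83 to −3.17 and its rank was 18 from the lowest, close to that of *Itgax*. It was −3.85 without the second UTX TCD library, which had no read. Within the sets of libraries it was −3.92 and −5.07, and that of *Itgax* −5.16 and −4.61. Antisense to *Itgad*, the annotation places *Gm39091*, *4931431B13Rik* and the end of *Cox6a2*. *4931431B13Rik* was at 0 in every library, *Cox6a2* was at 1.98, 3.95 and 0 in WT and at 0 in each UTX TCD library, and *Gm39091* is not among the genes listed. The strand setting of the counting is not given in the sources used here, so a few reads of the low *Itgad* counts are uncertain in origin. How reads shared between these related CD11 genes were counted is not given either.

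**Figure D1:**
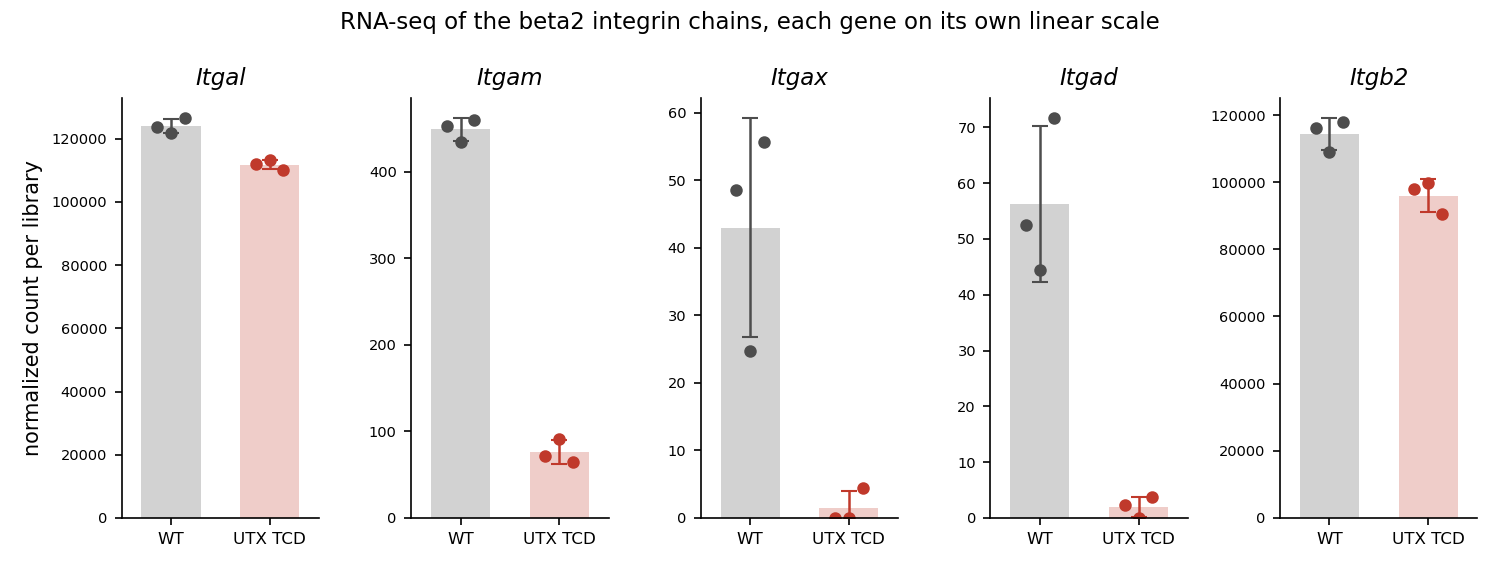
Normalized counts of the 5 β2 integrin genes in each RNA-seq library, 1 panel per gene with its own linear axis from 0; points are libraries, bars are means and error bars are SD (n = 3 per genotype). For *Itgal* and *Itgb2* the UTX TCD libraries lie a little below the WT libraries, for *Itgam* they lie at 72.0, 91.3 and 64.1 against 434 and above, and for *Itgax* and *Itgad* they lie at or near 0.

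Divided by the exonic length of each gene, the levels spanned more than 3 orders of magnitude. In WT, *Itgb2* stood at 38437 ± 1606 normalized counts per kb (SD, n = 3) and *Itgal* at 22494 ± 425. *Itgam* followed at 95.9 ± 2.81, *Itgad* at 14.1 ± 3.52 and *Itgax* at 9.61 ± 3.63. *Itgad* stood above *Itgax* within each WT library, although the ranges of the 2 genes overlapped. In UTX TCD the order of the first 3 genes was the same, at 32259 ± 1640, 20275 ± 271 and 16.2 ± 2.98, with *Itgad* at 0.497 ± 0.467 and *Itgax* at 0.330 ± 0.571, which overlapped.

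*Itgal* made up nearly all of the CD11 mRNA in both genotypes. Per length, *Itgal* took 99.5%, 99.5% and 99.4% of the summed CD11 level in the WT libraries and 99.9% in each UTX TCD library. The share of *Itgam* was 0.429%, 0.418% and 0.426% in WT and 0.0756%, 0.0949% and 0.0685% in UTX TCD, without overlap. *Itgad* took 0.0585%, 0.0503% and 0.0781% in WT and 0.0028%, 0% and 0.0046% in UTX TCD. *Itgax* took 0.0482%, 0.0249% and 0.0540% in WT, and in UTX TCD it was detected in the 1 library with reads, at 0.0049%. The summed CD11 level was 0.589 ± 0.0159 of the *Itgb2* level in WT and 0.630 ± 0.0244 in UTX TCD (SD, n = 3), higher in every UTX TCD library.

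Measured against their shared partner within each library, the CD11 genes were compared as log2 ratios of normalized counts after a pseudocount of 1. The log2 ratio of *Itgam* to *Itgb2* counts was −8.00, −7.97 and −8.00 in WT and −10.39, −10.08 and −10.44 in UTX TCD. The ratio of *Itgal* to *Itgb2* was 0.09, 0.16 and 0.10 in WT and 0.20, 0.18 and 0.29 in UTX TCD, slightly higher in every UTX TCD library. The genotype difference in this log2 ratio was −2.31 for *Itgam*, −4.31 for *Itgax* and −4.25 for *Itgad*, and 0.10 for *Itgal*. For the 2 scarce genes the size depends on the pseudocount, since with 5 it was −2.64 for *Itgax* and −2.89 for *Itgad*. Groups did not overlap in any of the 4 ratios, and the two-sided exact permutation test gave p = 0.1 for each, the smallest value that 3 libraries against 3 allow.

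Because CD11b, CD11c and CD11d mark myeloid, dendritic and NK cells, markers of such cells were read beside them. Of 22 myeloid and dendritic markers, 11 were abundant enough to be tested, of which *H2-Ab1*, an MHC class II chain, was called higher (log2 fold change 1.17) and *Csf1r*, the M-CSF receptor of macrophages, lower (−1.85). These were 18.2% of the markers tested, beside 17.6% of all genes tested. The neutrophil genes *S100a8* and *S100a9* were at 0 in all 6 libraries. *Spi1*, which encodes the myeloid factor PU.1, averaged 6.65 ± 0.474 in WT and 6.71 ± 3.90 in UTX TCD. The summed level of the list was 6006, 5453 and 4440.1 in WT and 5322, 4144 and 4621 in UTX TCD, with overlap, and 66.8% of it came from *Cst3*, a protease inhibitor gene that is not restricted to myeloid cells.

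For NK cells 5 of 7 markers were tested, and *Klra4* and *Eomes* were called higher (2.55 and 0.62) and *Fcgr3* and *Gzma* lower (−2.15 and −1.06). These were 80% of the markers tested, beside 17.6% of all genes tested. The sum of the 7 NK markers was 13742, 15637 and 13501 in WT and 19286, 19266 and 27115 in UTX TCD. *Eomes*, a factor that CD8+ T cells also express, made up 98.5% of it. *Ncr1*, a defining NK receptor, was at 0 in 2 libraries of each genotype. Of 7 B cell markers 5 were tested, with *Cd22* and *Ms4a1* called higher (1.90 and 1.72) and *Cd79b* lower (−1.98), or 60% of those tested. The sum of the 7 B cell markers was 3036, 2543 and 2884 in WT and 1503, 1331 and 1509.7 in UTX TCD, of which *Cd79b* made up 67.5%. The sum of 9 genes of the T cell list was 912023 ± 26919 and 883379 ± 50323, with overlap, and *Cd4* was its only called gene (−0.74), or 11.1% of those tested. The part of other cell types in the lower *Itgam*, *Itgax* and *Itgad* counts was not tested.

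Around the family, 7 lists covered the other integrins, the ligands, the proteins that switch β2 integrins on or off or carry their signals, and factors with known sites in CD11 promoters. Of 109 gene symbols in these lists, 108 were among the genes of the RNA-seq table and 93 were tested. Of the tested genes, 9 were called higher and 11 lower, or 21.5% beside 17.6% of all genes tested. Their median log2 fold change was −0.04, and that of all genes tested was −0.00018.

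Of the other α chains 12 were tested, and 5 were called lower and none higher at these limits. This was 41.7%, beside 17.6% of all genes tested that were called in either direction and 7.05% that were called lower. *Itga4*, the α chain of VLA-4 and of the gut-homing integrin α4β7 and the most abundant gene of the list, had 92438, 107687 and 89869.7 in WT and 48247, 46934 and 44513 in UTX TCD. The groups were far apart (log2 fold change −1.05, SE 0.07, limma adjusted p = 8.48e-06). *Itgae*, which encodes CD103, the α chain that holds T cells in epithelia, averaged 63644 ± 2142 in WT and 15172 ± 676 in UTX TCD and fell by 2.07 (SE 0.05, adjusted p = 1.88e-08). *Itga7* and *Itga2*, chains of laminin and collagen receptors, had log2 fold changes of −3.46 and −1.74, called lower from WT means of 377 ± 75.0 and 133 ± 17.0, and *Itga6* fell by 0.63.

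Among the other β chains 4 were tested and 1 was called, or 25% beside 17.6% of all genes tested. *Itgb3* was called higher at 1439 ± 46.1 in WT and 2113 ± 201 in UTX TCD (log2 fold change 0.55, SE 0.08, adjusted p = 0.000697). This call was lost without the third UTX TCD library and also with a fold limit of log2 of 1.5. Each left 0 called genes in the list. *Itgb7*, the partner of both α4 and αE and the most abundant of the list, averaged 117009 ± 8058 and 88308 ± 4189. Its log2 fold change of −0.40 was inside the fold limit, and its libraries did not overlap.

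Of the ligands, 11 of 16 were tested, and 3 were called higher and 1 lower, or 36.4% beside 17.6% of all genes tested. *F11r*, which encodes JAM-A, rose by 1.46 (SE 0.30, adjusted p = 0.00463), with 23.8, 24.7 and 48.0 in WT and 81.0, 89.7 and 86.2 in UTX TCD. *Ager* and *Icam5* rose by 0.72 and 0.53. With a fold limit of log2 of 1.5, which *Icam5* does not reach, 3 genes of the list were called, and 3 also with the replicate block. *Thy1*, a surface glycoprotein of T cells that Mac-1 can bind, had 169977, 135061 and 163387 in WT and 34422, 33235 and 21887 in UTX TCD and fell by 2.41 (SE 0.16, adjusted p = 8.58e-06). The main ligands of LFA-1 were not called: *Icam1* averaged 7901 ± 410.1 and 9588 ± 1003 with UTX TCD higher, and *Icam2* averaged 7251 ± 230.1 and 5482 ± 221 with UTX TCD lower.

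Of the proteins that switch β2 integrins on from inside the cell, 21 had tested genes, and 1 was called, or 4.76% beside 17.6% of all genes tested. It was *Tln2*, a second talin, at 124 ± 18.3 in WT and 223 ± 57.4 in UTX TCD (log2 fold change 0.83, SE 0.22, adjusted p = 0.0142). The number called was 0 without UTX TCD 2 and 2 without WT 2 or without UTX TCD 1. *Tln1*, the talin that opens LFA-1 in T cells, was the most abundant of the list and averaged 153525 ± 13920.1 and 150961 ± 8011, with overlap.

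Among 11 tested genes that restrain integrins, 3 were called, all lower. They were 27.3%, beside 17.6% of all genes tested that were called in either direction and 7.05% that were called lower. *Rap1gap2*, which turns off the small GTPase Rap1, had 2918, 2778 and 3035 in WT and 886, 931 and 439 in UTX TCD and fell by 2.03 (SE 0.24, adjusted p = 0.000227). *Flna*, the filamin that competes with talin for the β chain tail, averaged 220849 ± 30277 and 143489 ± 9035 and fell by 0.61, and *Sipa1l2* fell by 0.53. Without a call, *Sipa1* and *Sipa1l1* were higher (0.35 and 0.29) and *Rasa3* lower (−0.28) in every UTX TCD library. The number called in this list was 2 after scaling all libraries to 1 common total, with a fold limit of log2 of 1.5 or without UTX TCD 1. Of 25 tested genes that signal downstream of bound integrins, 3 were called higher and 2 lower, or 20% beside 17.6% of all genes tested. *Ptk2*, the focal adhesion kinase, averaged 695 ± 34.7 and 1659 ± 118 and rose by 1.25 (SE 0.09, adjusted p = 9.34e-06), and *Syk* rose by 1.65 from a WT mean of 24.0. *Fgr*, a Src family kinase of myeloid cells that is also found in some lymphocytes, had 1589.9, 1563 and 1534 in WT and 288, 323 and 433 in UTX TCD and fell by 2.18 (SE 0.14, adjusted p = 8.08e-06). *Dock2*, which activates Rac during lymphocyte migration, fell by 0.69, and *Coro1a*, the most abundant of the list, had a log2 fold change of −0.33 and was not called.

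Of factors with known sites in CD11 gene promoters 9 were tested and 1 was called, or 11.1% beside 17.6% of all genes tested. *Runx2* was the 1 called, higher in UTX TCD, at 911, 1002 and 921 in WT and 1869, 1997 and 2963 in UTX TCD (log2 fold change 1.24, SE 0.15, adjusted p = 0.000289). The number called was 2 without WT 1, WT 2, UTX TCD 1 or UTX TCD 2, and 3 after scaling all libraries to 1 common total. *Sp1*, the most abundant, averaged 48549 ± 879 and 47224 ± 1618, with overlap. *Runx3*, the dominant RUNX factor of CD8+ T cells, averaged 38104 ± 1129 and 41448 ± 1072 with a log2 fold change of 0.12, and was not called. *Runx1* averaged 8580 ± 756 and 11652 ± 463, higher in every UTX TCD library (log2 fold change 0.44, SE 0.07, limma adjusted p = 0.000772). This was inside the fold limit, so *Runx1* was not called.

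On chromosome 7 of mm10 the 4 CD11 genes are transcribed in the same direction. *Itgal* occupies chr7:127296139-127335137, and *Itgam* (chr7:128062640-128118491), *Itgax* (chr7:128129526-128150657) and *Itgad* (chr7:128173933-128205504) follow it in 1 cluster. The gap between *Itgam* and *Itgax* is 11034 bases and that between *Itgax* and *Itgad* 23275. Extended by 250 kb on each side, this stretch held 56 tested genes, of which 8 were called, or 14.3% beside 17.6% of all genes tested. Without the CD11 genes it held 52, of which 5 were called, and their median log2 fold change was −0.06.

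The genes bordering the cluster were not called. *Trim72*, the nearest gene of the table, 51246 bases before *Itgam*, had 224, 21.7 and 12.2 in WT and 22.5, 14.4 and 17.0 in UTX TCD. Its groups overlapped and 1 WT library was far above the rest (log2 fold change −1.12, 95% interval −3.13 to 0.88, adjusted p = 0.346), so the interval holds both no difference and one as large as that of *Itgam*. *9130023H24Rik*, 28946 bases beyond *Itgad*, averaged 1158 ± 84.9 and 1035 ± 82.1 with overlap. *Pycard*, an inflammasome adaptor next to *Trim72*, averaged 7952 ± 383 and 5420.3 ± 368 and fell by 0.55 (SE 0.06, adjusted p = 0.000141). The other called genes lay between *Itgal* and the cluster: *Zfp629* fell by 1.28, *Bcl7c* fell by 0.57, *1700120K04Rik* fell by 0.52, and *Fbxl19* rose by 0.59. Of the neighbours of *Itgal*, the pseudogene *Gm17511* was not called (−0.43), and *Zfp768* was too low to be tested, at 7.82 ± 6.94 and 4.82 ± 0.331.

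**Figure D2:**
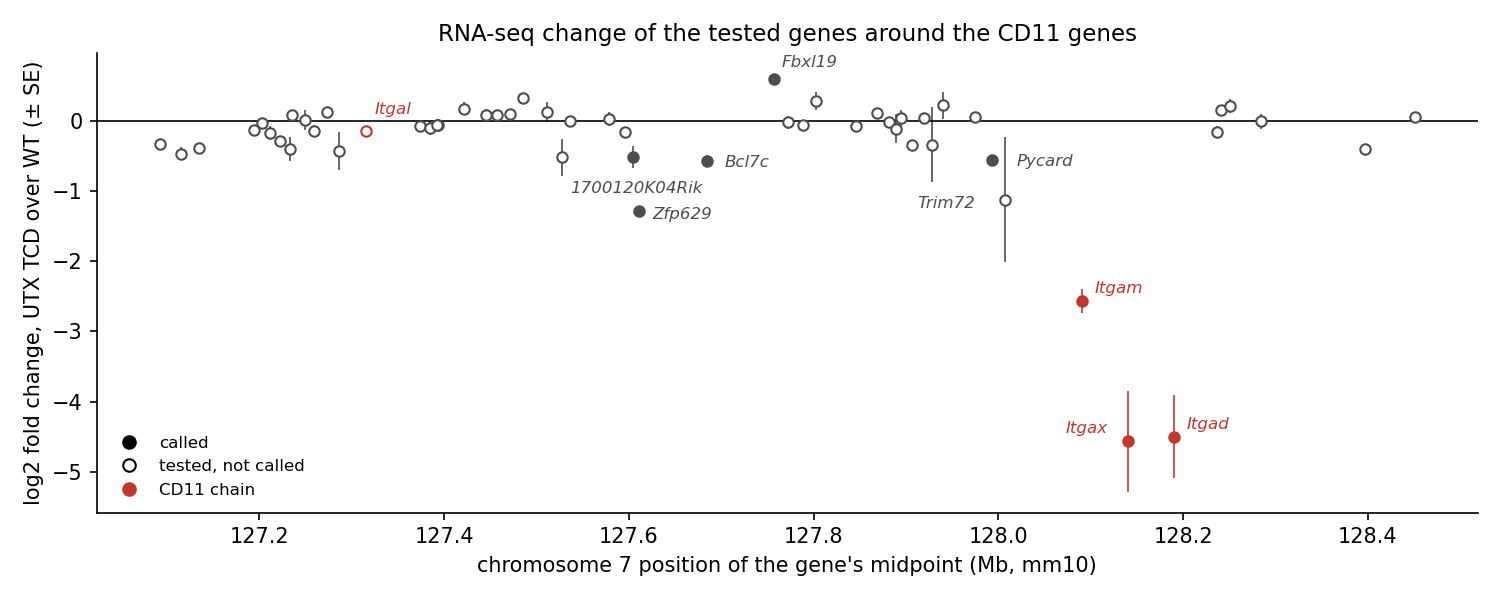
Log2 fold change, UTX TCD over WT, of the tested genes within 250 kb of the CD11 genes, by the position of each gene's midpoint on chromosome 7 in Mb (mm10); error bars are SE, filled points were called and CD11 genes are red. *Itgam*, *Itgax* and *Itgad* lie at −2.57, −4.57 and −4.50, *Zfp629* at −1.28 is the lowest other called gene, and *Itgal* lies at −0.15.

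Chromatin accessibility was read from the deposited peaks, which were filtered by the authors at an FDR under 0.05 and give 1 mean log2 concentration per genotype. There is no value per library, so the differences carry no SD and no test, and a peak that is not listed says nothing on whether it changed. Of all listed peaks, 31.2% were lower in UTX TCD. Of the 15 peaks named for β2 integrin genes, 12 were lower and 3 higher, and of the 15 that lie by position in a gene body or within 10 kb of it 10 were lower.

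All 10 listed peaks named for *Itgam*, *Itgax* and *Itgad* were lower in UTX TCD, by a median of −1.24 on the log2 scale. *Itgam* had 3 intergenic peaks before its start and 1 in intron 2. The peak at chr7:128050684-128051084, centred 11756 bases before the start, was the strongest, with a log2 mean of 9.29 in WT and 7.73 in UTX TCD (difference −1.56). The nearest one to the start, at chr7:128058665-128059065, went from 7.93 to 6.51 (−1.42). The intron 2 peak at chr7:128067877-128068277 went from 6.75 to 5.46 (−1.29), and the farthest, at chr7:128042377-128042777, from 8.02 to 7.47 (−0.55). All 4 were thus lower, the farthest by the least.

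The name of a peak follows the nearest promoter, and 3 of the 4 peaks named for *Itgax* lie inside the body of *Itgam*. They are at chr7:128101032-128101432 in *Itgam* intron 12 (6.35 to 5.37), chr7:128105304-128105704 in intron 14 (7.70 to 6.24) and chr7:128115178-128115578 in intron 24 (7.80 to 6.82). The fourth, at chr7:128132168-128132568 in intron 5 of *Itgax*, had the largest difference of the family, from 6.97 to 5.36 (−1.61). *Itgad* had 2 peaks, both in the interval between *Itgax* and *Itgad*, at chr7:128151942-128152342 (6.11 to 4.92) and chr7:128158654-128159054 (7.15 to 6.28). No listed peak lay at the annotated start of *Itgam*, *Itgax* or *Itgad*.

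In the stretch with 250 kb on each side, 31 of 44 listed peaks were lower, with a median of −0.52, so lower peaks were not confined to the cluster. Those at the cluster formed an unbroken run of 13 listed peaks over 159725 bases, from chr7:127999330 to chr7:128159054. Its first 3 peaks were named for *Trim72*, whose RNA was not called. The one at chr7:128029443-128029843, in the interval between *Trim72* and *Itgam*, ended 32796 bases before *Itgam*. It dropped from 7.77 to 4.17, a difference of −3.60 that ranked 13 from the lowest among the 23932 listed peaks. That at chr7:127999330-127999730, before *Trim72*, dropped from 5.79 to 3.24 (−2.55). These differences were larger than that of any peak named for a β2 integrin gene.

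**Figure D3:**
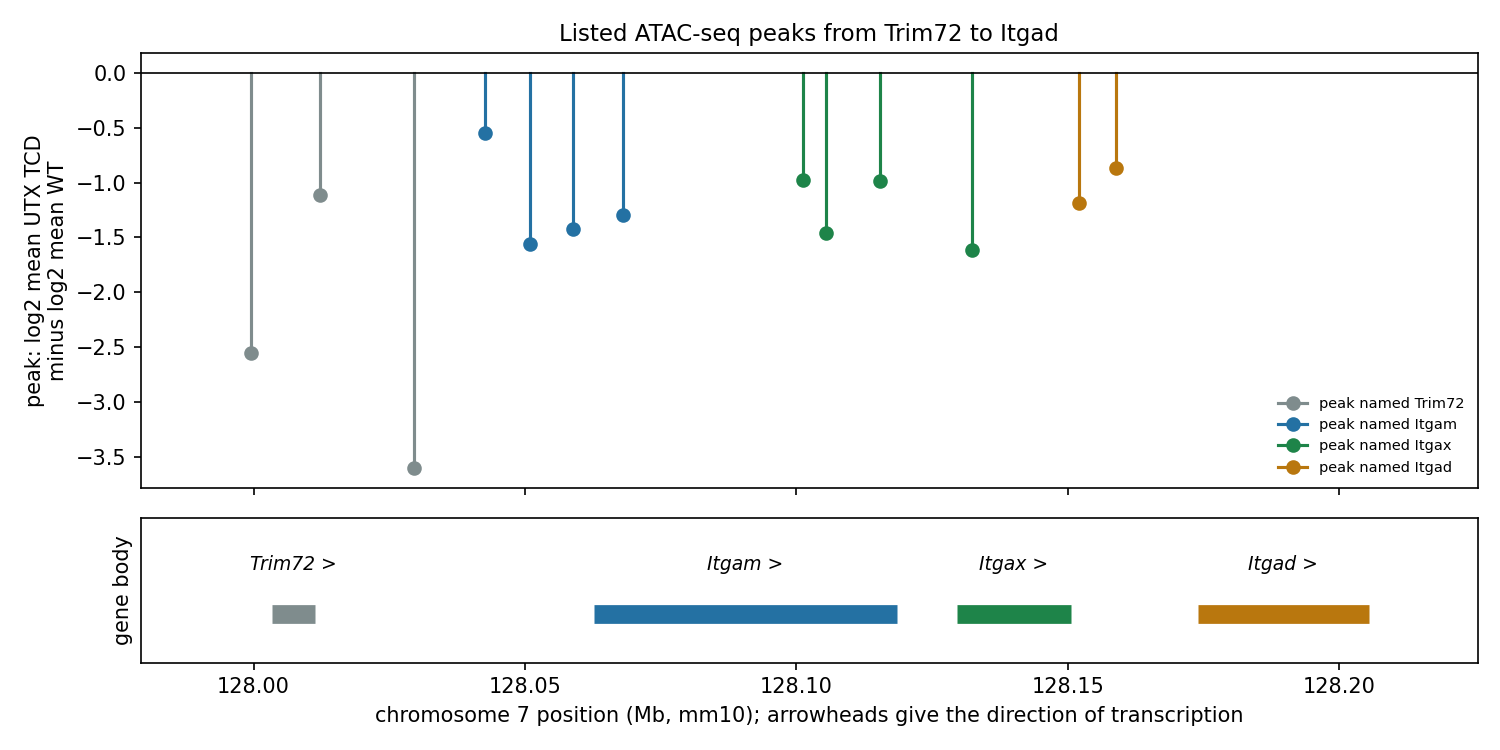
Listed ATAC-seq peaks from *Trim72* to *Itgad* on chromosome 7 (Mb, mm10), each drawn at its midpoint with the difference of the authors' log2 group means, UTX TCD minus WT, coloured by the gene it is named for; bars below are gene bodies, and no error can be given. All 13 peaks lie below 0, the deepest at −3.60 between *Trim72* and *Itgam*.

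*Itgal* had a peak at its promoter, chr7:127295998-127296398, with a log2 mean of 11.17 in WT and 11.50 in UTX TCD (0.33). A second, at chr7:127287921-127288321 and centred 8139 bases before the start given in the peak list, went from 10.69 to 10.45 (−0.24). The remaining peak, in intron 15 of *Itgal* at chr7:127313623-127314023, went from 7.01 to 7.76 (0.75). Both peaks named for *Itgb2* lie in its intron 1 on chromosome 10: that at chr10:77537227-77537627 went from 10.97 to 11.49 (0.53) and that at chr10:77539548-77539948 from 8.62 to 8.28 (−0.34). A peak named for *Pttg1ip* lies in intron 9 of *Itgb2*, at chr10:77556640-77557040, and went from 6.05 to 6.67 (0.62). At each of these genes the listed peaks went in both directions.

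Sequence is shown for the available promoters and for the peak of each CD11 gene with the largest difference; no listed peak overlaps these promoters. The promoter table of RefSeq (GRCm38.p6, the same build as mm10) matched 2 of the 5 genes, *Itgam* and *Itgax*, with 300 bases each; *Itgal*, *Itgad* and *Itgb2* had no entry. Of each peak the central 300 bases were read from the same genome on the plus strand. A search on both strands covered 5 motifs: RUNX (TGTGGT), the PU.1 core (GAGGAA), STAT (TTCNNNGAA), TCF (CTTTGA) and Sp (GGGCGG). They are printed in capitals, in the opposite orientation where the match is on the minus strand, and a match is only a description of the letters.

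The *Itgam* promoter held 3 PU.1 core matches, 2 TCF matches and 1 Sp match, with the last PU.1 and TCF matches overlapping. The *Itgax* promoter held 1 RUNX match and none of the other motifs. Of all 32851 promoters of this length, 28.3% held the PU.1 core, 16.0% TCF, 35.7% Sp, 16.8% RUNX and 8.30% STAT. The promoters are *Itgam* at chr7:128062390-128062689 and *Itgax* at chr7:128129300-128129599, both on the plus strand.
Itgam promoter: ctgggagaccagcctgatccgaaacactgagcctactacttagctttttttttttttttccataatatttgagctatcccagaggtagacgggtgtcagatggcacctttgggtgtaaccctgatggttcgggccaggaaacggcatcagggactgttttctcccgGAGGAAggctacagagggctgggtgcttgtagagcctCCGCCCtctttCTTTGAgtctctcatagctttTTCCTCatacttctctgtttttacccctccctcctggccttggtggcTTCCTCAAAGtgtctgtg
Itgax promoter: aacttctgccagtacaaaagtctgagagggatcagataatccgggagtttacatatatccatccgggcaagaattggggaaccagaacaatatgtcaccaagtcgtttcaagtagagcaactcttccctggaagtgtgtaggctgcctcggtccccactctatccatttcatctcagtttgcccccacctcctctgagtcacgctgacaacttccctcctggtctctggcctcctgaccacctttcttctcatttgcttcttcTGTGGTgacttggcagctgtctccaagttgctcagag

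RUNX was the most frequent motif in the peaks, in 9 of 15 peaks of the family and in 7 of the 10 peaks of *Itgam*, *Itgax* and *Itgad*, beside 34.3% of the 23907 listed peaks searched and 43.3% of those lower in UTX TCD. The PU.1 core was in 5 of the 15 (32.2% of all) and TCF in 4 (25.1%), whereas STAT (8.82%) and Sp (19.8%) were in 0. In 3 of the peaks printed here, those of *Itgam* before its start, *Itgax* in intron 5 and *Itgad* in the interval before it, the single match was RUNX on the minus strand, and the higher *Itgal* peak in intron 15 held RUNX and the PU.1 core on the plus strand. The stretches are chr7:127313673-127313972, chr7:128050734-128051033, chr7:128132218-128132517 and chr7:128151992-128152291 of GRCm38.
Itgal peak: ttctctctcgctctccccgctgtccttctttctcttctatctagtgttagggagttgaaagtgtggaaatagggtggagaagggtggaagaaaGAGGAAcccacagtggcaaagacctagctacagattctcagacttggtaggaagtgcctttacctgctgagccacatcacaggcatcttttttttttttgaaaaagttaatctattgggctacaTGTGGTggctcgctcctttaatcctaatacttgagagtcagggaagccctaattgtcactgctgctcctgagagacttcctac
Itgam peak: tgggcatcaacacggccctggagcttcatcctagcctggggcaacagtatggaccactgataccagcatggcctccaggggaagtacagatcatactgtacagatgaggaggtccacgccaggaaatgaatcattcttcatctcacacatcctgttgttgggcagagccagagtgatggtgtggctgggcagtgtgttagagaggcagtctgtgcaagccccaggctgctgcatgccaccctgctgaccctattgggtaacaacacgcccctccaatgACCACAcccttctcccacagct
Itgax peak: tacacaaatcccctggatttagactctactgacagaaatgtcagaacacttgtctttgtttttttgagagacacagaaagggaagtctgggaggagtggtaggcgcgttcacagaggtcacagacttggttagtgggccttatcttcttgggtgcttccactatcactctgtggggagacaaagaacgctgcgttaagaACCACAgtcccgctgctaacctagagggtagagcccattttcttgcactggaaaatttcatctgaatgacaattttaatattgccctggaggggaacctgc
Itgad peak: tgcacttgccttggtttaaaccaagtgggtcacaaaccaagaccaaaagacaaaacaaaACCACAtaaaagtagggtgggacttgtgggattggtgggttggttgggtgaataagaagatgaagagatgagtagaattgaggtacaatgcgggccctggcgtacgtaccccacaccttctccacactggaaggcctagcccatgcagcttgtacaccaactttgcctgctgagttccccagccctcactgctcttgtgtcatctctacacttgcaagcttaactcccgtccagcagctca

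Finally, the genes most alike to each member over the 6 libraries were found by the root mean square difference between log2 profiles centred on their mean. For *Itgam* they were *Ahnak* (0.144), *Rgs2* (0.151) and *Acsbg1* (0.152). *Ahnak*, a giant scaffold protein, had 80121, 72570.3 and 89944 in WT and 14785, 16411 and 9738 in UTX TCD. *Rgs2*, a brake on G protein signalling, had 2308, 2033 and 2359 in WT and 373, 357 and 341 in UTX TCD. For *Itgax* they were *Edaradd* (0.403), *4932438H23Rik* (0.463) and *Clec12a* (0.486), a myeloid lectin with 22.8, 21.7 and 25.9 in WT and 0, 0 and 4.42 in UTX TCD. For *Itgad* they were *Hspa12a* (0.535), *Ighv8-6* (0.557) and *Pde9a* (0.608), and *Itgax* itself stood at 0.641 from *Itgad*.

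*Itgal* and *Itgb2* had closer matches. For *Itgal* the closest were *Dock11* (0.0063), *Psmd5* (0.0137) and *Ppp6c* (0.0143), and for *Itgb2* they were *Tmem50b* (0.0178), *Ttc13* (0.0184) and *Ppp1ca* (0.0197). *Itgal* and *Itgb2* stood 0.0649 apart. *Itgam* stood 1.16 from *Itgb2* and 1.22 from *Itgal*, and 1.28 from *Itgad* and 1.40 from *Itgax*. These distances hold for the pseudocount of 1, on which the values of the scarce *Itgax* and *Itgad* depend, so this order is uncertain. With a pseudocount of 5 the log2 fold changes were −2.50 for *Itgam*, −2.89 for *Itgax*, −3.15 for *Itgad* and −0.25 for *Itgb2*. Distances were not computed with that setting.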

How the data were processed

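Sorted CD8+ T_prog_ cells gave 3 RNA-seq and 3 ATAC-seq libraries per genotype. For RNA-seq the authors used FastQC, HISAT2 2.2.1 on mm10, featureCounts and DESeq2, and the deposited signal is a normalized count for each gene and library. For ATAC-seq the authors used Cutadapt, Bowtie2, Picard to remove duplicates, MACS2, DiffBind and HOMER, and deposited for each peak the log2 concentration of each genotype; a transposase shift is not given in the sources used here. The authors also deposited columns of their own comparison (fold changes, p-values and FDR), of which none was used, other than to read that the largest FDR of the peak list is 0.0500. Annotation and strand setting are not given in the sources used here.

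Each value divided by the smallest value above 0 of its library was whole within 0.01 for 100% of values, and these quotients are given as reads. Depth ranged from 61512402 to 193568919 reads. Floors (3 reads) cover counting error alone, as no molecular identifiers were used, and the 95% intervals are those of limma, from the spread between libraries. No libraries of a genotype agreed within sampling noise. The test was limma 3.58.1 (R 4.3.3; lmFit, then eBayes with trend) fitted to log2 values after a pseudocount of 1, for genes whose normalized counts averaged 10 or more, with a genotype term alone and Benjamini-Hochberg adjustment over all genes tested; fold changes on this scale understate the change of low genes. It was tested on simulated data. Exonic lengths are merged exons of RefSeq genes in GRCm38.p6. Sequences were read with pysam 0.24.0 in Python 3.11.15, and figures drawn with matplotlib 3.10.9.

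The members and lists were chosen with earlier results of these data known. Named genes are every member, *Kdm6a* and the sort markers, called genes (not all of them) and the most abundant gene of each list, the called and bordering genes of the chromosome 7 stretch, and the 3 genes most alike to each member. The *Trim72* peaks, the lineage genes and other genes named without a call were chosen after their values were seen. Alternatives covered the pseudocount, the filter, the scaling, robust variances, a replicate block, the fold limit, drawn-down reads, each library left out, the peak rules and the chromosome 7 stretch.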

Additional observations from a re-analysis of the deposited data

How the results depend on the processing

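All 5 genes kept their direction under the alternatives run for them, and *Itgam*, *Itgax* and *Itgad* were called lower in 17 of 17, 16 of 16 and 16 of 16 of these; with a mean count of at least 50 *Itgax* and *Itgad* were too low to be tested. The log2 fold change ranged from −2.73 to −2.45 for *Itgam*, from −5.38 to −2.89 for *Itgax* and from −4.96 to −3.15 for *Itgad*, with limma adjusted p up to 0.000127, 0.00658 and 0.00251. That of *Itgal* ranged from −0.16 to −0.09, with adjusted p from 0.0166 to 0.0800 and under 0.05 in 12 of 17 alternatives, and that of *Itgb2* from −0.29 to −0.19, with adjusted p up to 0.0268. With no limit on the fold change, *Itgal* (−0.15) and *Itgb2* (−0.25) were called, with 5887 genes in all, 51 in the pathway lists and 16 in the chromosome 7 stretch, by that rule's own construction. With a fold limit of log2 of 1.5, 5 genes of that stretch were called. With a pseudocount of 5 the log2 ratio to *Itgb2* differed by −2.64 for *Itgax* and −2.89 for *Itgad*, since added counts weigh most on genes near 0. Within 10 kb of the transcription start, 7 peaks were left, 5 of them lower, as fewer peaks were counted.

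With the replicate number as a block 2474 genes were called and no member's call changed. Deviations of same-numbered libraries correlated at 0.305, −0.200 and 0.0897, and not every library correlated best with its own number. The labels do not tie a library to a mouse, and deviations from means of 3 libraries cannot decide whether same-numbered libraries are paired. A term for the sets with odd and even low counts, chosen after seeing the data like the differences within these sets, gave 2583 called genes and −2.59 for *Itgam*. TMM scaling and count tests were not run, because an automatic check of units did not accept the first WT library, whose smallest value of 0.991 lies close to 1. Its values are whole multiples of that step like those of the other libraries, and the reads given here and the drawn-down alternative use these quotients. Depth limits the 2 scarce genes: *Itgax* and *Itgad* each rest on 6 reads over the UTX TCD libraries.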
